A study of Homo sapiens with 3 samples.

Results

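Gene expression of 2 clones of the U-87MG glioblastoma cell line (U87) was compared on 1 array after 24 h in serum-free medium. U87WT 5 (U87WT) carried a vector for the type 1 insulin-like growth factor receptor fused to green fluorescent protein (GFP-IGF1R), which can move to the nucleus, and U87Mut 5 (U87Mut) carried GFP-IGF1R1025x-1100x-1120x, in which the 3 lysines that the numbers in its name stand for were changed and which stays outside it. Both vectors hold the coding sequence of the mature receptor, both clones overexpress IGF1R, each is 1 clone selected with geneticin, and parental or empty-vector cells were not analysed here. Before serum was withdrawn, both clones had grown in medium with fetal bovine serum. Both RNAs were hybridized to the same Agilent array, that of U87WT in Cy5 (red) and that of U87Mut in Cy3 (green), without a dye swap, so that a difference between the dyes and a difference between the clones cannot be told apart. The comparison asks which genes differ when no ligand is added between a clone whose receptor can move to the nucleus and a clone whose receptor cannot. Whether the receptor of U87WT was in the nucleus in these serum-free cells is not shown by the array.

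The members were the probes that the scanner software marked as well above background in both channels, 30713 of 58201 probes on the array (52.8%). The dimmest members had a median signal of 25.5 scanner units in Cy5 and 26.0 in Cy3. The brightest signal not marked as well above background was 33.4 in Cy3. In Cy5 it was 32.4 among probes with a local Cy5 background of at most 40. A name from RefSeq was given to 22222 members, which stand for 16485 genes, and each gene is described by its brightest member probe. All differences below are log2 ratios of U87WT over U87Mut, so a value of 1 is 2 times as much signal in U87WT. Signals are given as scanned, before background correction and loess, and their plain quotient therefore differs from the ratio beside them. An offset of 50 was added to both channels after the background correction, which draws the ratios of dim probes toward 0. Sizes and ranks below hold for this setting. With 1 array there is no replicate and no test, and sizes are described. The same clones were also compared, with the same dyes, on 1 array after 24 h with IGF1 (50 nM) and on 1 array with IGF1 (50 nM) and the IGF1R inhibitor OSI906 (0.5 μM in the title), and the values of the genes on those arrays stand beside the serum-free ones.

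IGF1R is a receptor tyrosine kinase that, once IGF1 or IGF2 binds, signals through the IRS adaptors, PI3K and AKT and through the MAPK pathway, and it drives growth and survival in glioma. SUMO-modified receptor also moves to the nucleus, where it binds chromatin. Cells in serum-free medium lack most growth factors and external lipoproteins, a state in which many cells leave the cell cycle and make their own sterols and fatty acids.

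Precision within the array was read from 276 member probes that are spotted at least 7 times: the SD of their log2 ratio over spots had a median of 0.0456 and lay between 0.0166 and 0.119. Different probes of a gene differed more. Over the 4450 genes with a second member probe, the median difference in size between the 2 brightest probes was 0.164. The markers of U87 and mesenchymal glioma were nearly all present, with 16 of 17 above background. They lay between -0.96 and 1.46, 4 of them above 0.5 (6.07% of all genes) and 4 below -0.5 (5.69%). Above background were also 9 of 17 glial and neural markers and 5 of 12 endothelial, blood and epithelial markers. GFAP, SOX2, SOX10 and OLIG1, which define astrocytes and oligodendrocyte-lineage cells, were not above background in both channels, and the 9 glial and neural markers that were lay between -0.31 and 1.78, with SLC1A3, an astrocytic glutamate transporter, at 1.78 (second probe 0.37) and SNAP25, a synaptic protein, at 1.06. The 5 endothelial, blood and epithelial markers that passed lay between -0.04 and 0.36.

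Of the 16485 genes, 192 lay above 1 (1.16% of those measured) and 149 below -1 (0.904%). At 0.5, 1001 genes lay above (6.07%) and 938 below (5.69%), and the SD over all genes was 0.348. Loess was used to centre the ratios. With the array centred on its median instead, the median of all genes moved by -0.138, to -0.15. With this centring 108 genes lay above 1 and 360 below -1, so that 23.1% of the calls were on the U87WT side in place of 56.3%. The lists below are therefore read against the median of all genes, which was -0.01. Values given below with the array centred on its median are read against -0.15. Some spots of the array had a bright local Cy5 background: 127 genes had a probe with a local background above 40, and 6 of these lay above 1 and 3 below -1. None of the 92 genes named by rule was among them, and their local Cy5 background lay between 19 and 26.

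**Figure D1:**
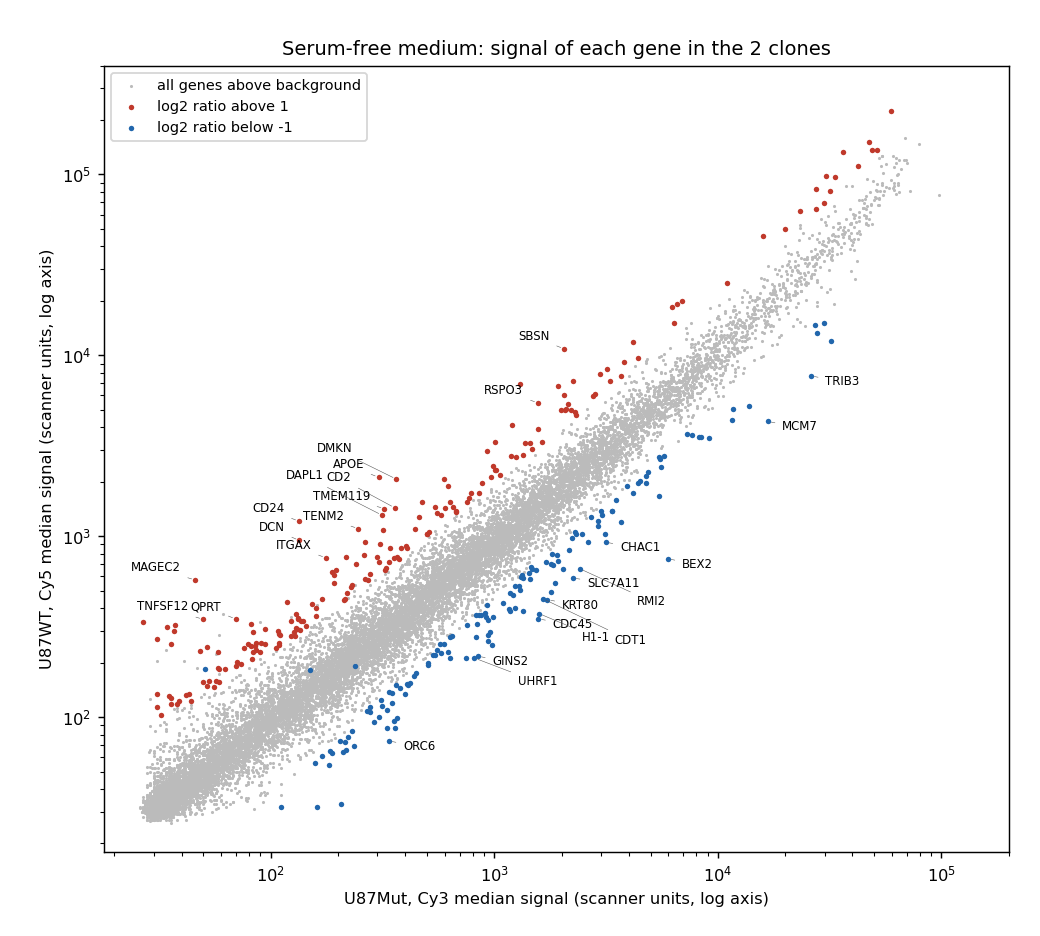
Median signal of each of the 16485 genes in U87Mut (Cy3, x axis) and U87WT (Cy5, y axis) on the serum-free array, in scanner units before background correction and on log axes, 1 point a gene. Red points are the 192 genes with a log2 ratio above 1 and blue points the 149 genes below -1, and 27 genes at the ends are named. Blue points inside the grey cloud include the 3 genes below -1 whose local background was bright in Cy5.

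The genes that were highest in U87WT, among probes brighter than the median member, included secreted matrix and lipid-carrying proteins, epidermal proteins and genes best known from leukocytes. The 15 highest lay between 1.79 and 2.96, and the 15 lowest between -1.67 and -2.89. CD24, a glycosylphosphatidylinositol-anchored surface glycoprotein, had a signal of 1209 in U87WT and 134 in U87Mut and a log2 ratio of 2.96 (7.78-fold). MAGEC2, a cancer-testis antigen, had 572.5 in U87WT and 46 in U87Mut (2.95). With the signals as the scanner software processed them, CD24 lay at 3.6 and MAGEC2 at 4.65. Both had 1 member probe, and on the IGF1 and the IGF1 with OSI906 arrays CD24 lay at 2.13 and 1.93 and MAGEC2 at 2.91 and 2.58.

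APOE, the apolipoprotein that astrocytes and macrophages secrete with lipid, read 2117 in U87WT and 304 in U87Mut (2.74). DCN, decorin, a small proteoglycan that binds collagen and TGF-beta, read 946.5 in U87WT and 134.5 in U87Mut (2.63), and its ratio was 1.94 and 3.22 on the other arrays. DMKN and SBSN, neighbouring genes for secreted proteins of the epidermis, lay at 2.46 and 2.36. SBSN read 10848 in U87WT and 2055 in U87Mut, and DMKN had 3 member probes between 1.03 and 2.46.

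TMEM119, a membrane protein used as a marker of microglia and also expressed in osteoblasts, lay at 2.09, with 2.04 and 2.01 on the other arrays. ITGAX (the integrin CD11c of dendritic cells and macrophages) and CD2 (an adhesion molecule of T cells) lay at 1.97 and 1.97. PTPRC and CD14, which define leukocytes and monocytes, lay at 0.21 and 0.06, and AIF1 and CD3E were not above background in both channels.

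A further 5 of the 15 highest were TNFSF12 (2.21), a TNF-family ligand, TENM2 (2.08), a teneurin of neuronal contacts, DAPL1 (2.01), QPRT (1.91), which makes the NAD precursor from quinolinate, and RSPO3 (1.79), a secreted amplifier of Wnt signaling. DAPL1 had a second probe at 0.71, less than its first. TNFSF12 was dim in U87Mut (50 in Cy3) and lay at 3.55 with the signals as the scanner software processed them. All 15 were higher in U87WT on both other arrays as well, and 14 of the 15 lay above 1 on both. TENM2 was the exception, at 0.92 on the IGF1 array.

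At the other end, BEX2, an X-linked gene of the brain-expressed family, read 751 in U87WT and 5957 in U87Mut, a log2 ratio of -2.89 (7.41-fold more in U87Mut), from 1 probe. Its ratios on the other arrays were -2.17 and -2.77. Most of the other genes at this end act in S phase. MCM7, CDC45, GINS2, CDT1, ORC6, UHRF1, RMI2, which dissolves recombination intermediates, and the linker histone gene H1-1 were among the 15 lowest, and so were TRIB3, SLC7A11 and CHAC1, which the stress factor ATF4 controls. KRT80, an epithelial keratin, lay at -1.80 from 1 probe, and at -0.87 and -1.80 on the other arrays. All 15 were lower in U87WT on both other arrays, and 12 of them lay below -1 on both.

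**Figure D2:**
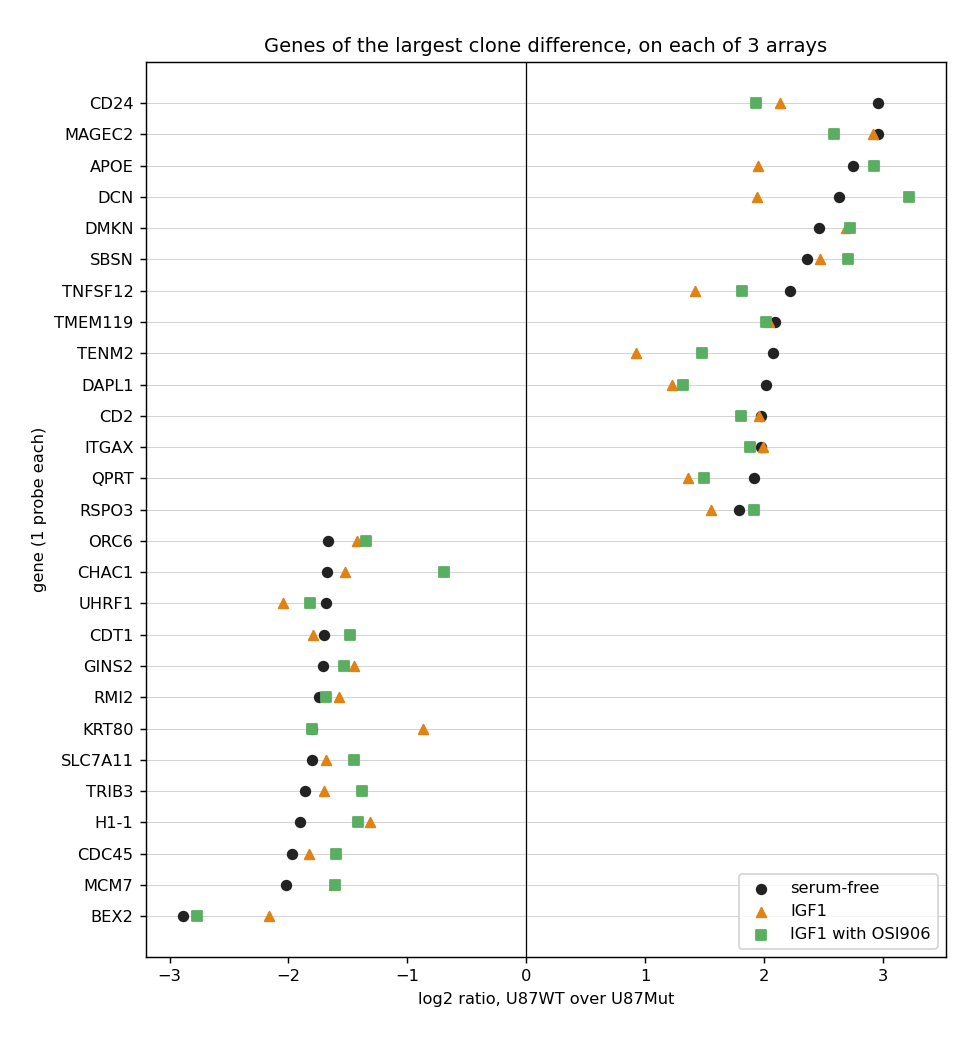
Log2 ratio of U87WT over U87Mut (x axis) for 27 genes of the 15 highest and 15 lowest of the serum-free array (y axis), on each of the 3 arrays, 1 probe and 1 array a point, with no error bar because no condition was repeated. The genes were chosen on the serum-free values (black circles). The points of the other arrays (orange triangles, green squares) lie on the same side of 0 for all 27 genes, and the point nearest to 0 is CHAC1 with IGF1 and OSI906 (-0.69).

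Genes of DNA replication formed the group with the lowest median. These genes load the MCM2-7 helicase onto origins, start it with CDC45 and the GINS proteins, and supply polymerases, clamp loaders and nucleotides, and most are turned on by E2F transcription factors when a cell passes from G1 into S phase. Of 42 listed genes on the array, 41 were above background and all 41 were below 0. Below -0.5 lay 39 of 41, against 5.69% of all genes, and 22 of 41 lay below -1, against 0.904%. None lay above 0.5. The median was -1.01, and it was -0.96 on the IGF1 array and -0.93 on the array with IGF1 and OSI906. In RNA of a whole culture, fewer cells in S phase and less of these RNAs per cell cannot be told apart.

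The helicase subunits read as follows. MCM7 had 4308.5 in U87WT and 16713 in U87Mut (-2.02, second probe -0.93). MCM5, MCM6, MCM4 and MCM2 lay at -1.62, -1.56, -1.54 and -1.51. All 5 measured subunits were thus below -1 by their brightest probe, and MCM3 is not among the named probes. Its partners were lower too: CDC45 read 349 in U87WT and 1572 in U87Mut (-1.97), and GINS2, GINS4, GINS1 and GINS3 lay at -1.71, -1.38, -1.12 and -1.08. GINS2 is spotted 8 times on the array, and its SD over spots was 0.0555.

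Of the genes that license origins, CDT1 read 452 in U87WT and 1645 in U87Mut (-1.71) and ORC6 73.8 in U87WT and 337.4 in U87Mut (-1.67, SD 0.0527 over 10 spots). ORC6 lay at -2.58 with the signals as the scanner software processed them. CDC6, which loads the helicase together with CDT1, was well above background in U87Mut only, with a Cy3 signal of 44.0 against 27.0 in Cy5. The clamp loaders RFC4, RFC3, RFC2 and RFC5 lay at -1.25, -1.24, -0.999 and -0.75. PCNA, the clamp itself, read 1044.5 in U87WT and 2103 in U87Mut (-0.93). Over the list the Cy5 signals ran from 34.0 (MCM10, -0.82) to 14696.5 (TK1), so the difference was present in dim and in bright probes.

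The DNA polymerase and primase genes were lower by less than the helicase. POLD1, the catalytic subunit of polymerase delta, lay at -0.98, PRIM1 at -1.12, and POLA1, POLA2, POLE2 and POLE between -0.64 and -0.47. For nucleotide supply, TK1 read 14696.5 in U87WT and 27229.5 in U87Mut (-1.02), TYMS 2723 in U87WT and 5453 in U87Mut (-1.001), and RRM2 and RRM1 lay at -0.73 and -0.65. The chromatin assembly factor genes CHAF1A and CHAF1B lay at -1.29 and -1.01, and UHRF1, which brings the maintenance methyltransferase to new DNA, at -1.68, against -0.69 for DNMT1 itself. E2F2 and E2F1, activators of this program, were themselves at -1.62 and -1.01.

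The promoters of these genes were searched for the letters of an E2F-type site: TTTCCCGC, TTTCGCGC, TTTGCCGC or TTTGGCGC on either strand, where TTTCGCGC and TTTGGCGC can overlap with each other's reverse complement. Windows ran from 250 bases before to 50 after the start of transcription in RefSeq (GRCh38.p14), and 12682 of the 16485 genes had one. The letters stood in 908 of all 27305 promoters (3.33%), in 608 of the 12682 measured genes (4.79%), in 30 of 114 genes below -1 (26.3%) and in 2 of 124 genes above 1 (1.61%). Of 36 DNA replication genes with a promoter, 19 held them (52.8%). The median log2 ratio over the 608 measured genes with the letters was -0.08, against -0.00 over the 12074 without, and 84 of the 608 (13.8%) lay below -0.5, against 637 of 12074 (5.28%). Within the DNA replication list the 19 genes with the letters had a median of -1.08 and the 17 without -0.98, so that the genes without them were also low.

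The stretches before the start of transcription of 5 of these genes are shown, 150 bases each, because they hold the letters close to the start in genes that were among the lowest of the array. Sequences are from RefSeq, in the direction of the gene, with the matched letters in capitals.
MCM7, chr7:100101398-100101547, minus strand: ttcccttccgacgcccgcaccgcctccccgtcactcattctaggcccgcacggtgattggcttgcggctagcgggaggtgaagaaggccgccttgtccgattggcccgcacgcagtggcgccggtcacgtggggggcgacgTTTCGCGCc
MCM6, chr2:135876454-135876603, minus strand: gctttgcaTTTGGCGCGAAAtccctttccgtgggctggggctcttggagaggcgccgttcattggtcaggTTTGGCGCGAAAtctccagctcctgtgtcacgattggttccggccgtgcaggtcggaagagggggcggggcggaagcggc
CDT1, chr16:88803639-88803788, plus strand: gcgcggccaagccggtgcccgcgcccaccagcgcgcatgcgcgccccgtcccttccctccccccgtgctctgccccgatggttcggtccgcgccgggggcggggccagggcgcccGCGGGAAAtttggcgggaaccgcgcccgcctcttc
GINS2, chr16:85688955-85689104, minus strand: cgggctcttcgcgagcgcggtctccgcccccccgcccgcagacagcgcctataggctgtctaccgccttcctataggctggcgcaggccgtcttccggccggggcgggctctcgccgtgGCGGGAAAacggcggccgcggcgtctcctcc
UHRF1, chr19:4909351-4909500, plus strand: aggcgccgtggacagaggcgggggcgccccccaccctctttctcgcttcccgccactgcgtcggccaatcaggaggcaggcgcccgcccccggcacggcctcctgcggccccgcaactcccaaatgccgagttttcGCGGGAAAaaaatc

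In MCM7 the match began 9 bases before the start and in UHRF1 14 bases before it. In GINS2 and CDT1 it began 31 and 35 bases before the start. MCM6 held 4 matches, in 2 overlapping pairs, the first of them 152 bases before the start, and its log2 ratio was -1.56. A match of letters is a description of these windows and says nothing on binding in these cells.

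Genes of mitosis were lower too, by less. They encode the cyclins, kinases, kinesins and checkpoint proteins that build the spindle and separate the chromosomes. Of 43 genes above background, 42 were below 0 and 25 below -0.5 (5.69% of all genes), none lay above 0.5 or below -1, and the median was -0.56 (-0.66 and -0.58 on the other arrays). BUB1B, a spindle checkpoint kinase, read 225 in U87WT and 516 in U87Mut (-0.997), and CDK1, the mitotic kinase, 236.3 in U87WT and 442.6 in U87Mut (-0.74). TOP2A lay at -0.80 and CCNB1, AURKA and PLK1 at -0.37, -0.31 and -0.36. MKI67, the proliferation antigen Ki-67, was the exception, with 336 in U87WT and 354.5 in U87Mut (0.01). The E2F-type letters stood in 3 of 37 promoters of this list (8.11%).

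Replication-dependent histone genes, whose RNA accumulates in S phase, were grouped by their symbols after their values were seen. Of 63 above background, 34 lay below -0.5 (5.69% of all genes), 15 below -1 (0.904%) and 2 above 0.5 (6.07%), with a median of -0.67. The subtypes differed. H1-1 read 373.5 in U87WT and 1584.5 in U87Mut (-1.90), H3C15 1678 in U87WT and 5438 in U87Mut (-1.66) and H4C5 3529.5 in U87WT and 8382.5 in U87Mut (-1.27). H2B genes such as H2BC13, H2BC15 and H2BC8 lay at -0.01, 0.01 and 0.02. Histone genes of a subtype are close to identical in sequence, so that the probes may share target RNA.

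CCND1, cyclin D1, which drives G1 in response to growth factors, read 397.6 in U87WT and 1168 in U87Mut (-1.39, SD 0.0682 over 7 spots), and lay at -1.18 and -1.17 on the other arrays. Of the CDK inhibitors, CDKN1A lay at -0.27 and CDKN1B, which rises in quiescent cells, at 0.48. Among the 23 p53 targets and CDK inhibitors above background 4 lay below -0.5 (5.69% of all genes) and 1 above 0.5 (6.07%). The 2 below -1 were BAX (-1.15, but -0.12 with its second probe and -0.04 on the IGF1 array), a pore-forming apoptosis protein, and SESN2 (-1.16), which also belongs to the next group.

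Targets of ATF4 were the other group that was lower in U87WT. ATF4 is the transcription factor whose translation rises when amino acids run short or the endoplasmic reticulum is stressed, and its targets take up and make amino acids or act in cell death. All 26 listed genes were above background, 20 lay below -0.5 (5.69% of all genes), 12 below -1 (0.904%) and none above 0.5, and the median was -0.93. The medians on the IGF1 and the IGF1 with OSI906 arrays were closer to 0, at -0.51 and -0.54.

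TRIB3, a pseudokinase that restrains AKT and ATF4, read 7698.5 in U87WT and 26053.5 in U87Mut (-1.86). CHAC1, which breaks down glutathione, read 926 in U87WT and 3147 in U87Mut (-1.68, second probe -1.39), and DDIT3, the death-promoting factor CHOP, 790 in U87WT and 1916.5 in U87Mut (-1.18). The amino acid transporters lay on the same side. The cystine carrier SLC7A11 read 587 in U87WT and 2243 in U87Mut (-1.81), and the leucine carrier SLC7A5, its partner SLC3A2 and the glutamine carrier SLC1A5 lay at -1.52, -1.09 and -1.17. DDIT4 and SESN2, which inhibit mTORC1, lay at -1.46 and -1.16. On the array with IGF1 and OSI906 DDIT4 lay at -0.55, CHAC1 at -0.69 and VEGFA, at -1.13 in serum-free medium, at -0.05.

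The enzymes of serine and asparagine synthesis were lower by less. PSAT1, PHGDH, ASNS and PSPH lay at -0.74, -0.60, -0.60 and -0.39, and the mitochondrial folate enzymes MTHFD2 and SHMT2 at -0.94 and -0.48. ATF4 mRNA itself read 33059 in U87WT and 41710.5 in U87Mut (-0.52). CEBPB (0.23) and ALDH1L2 (0.14) were the 2 genes of the list above 0.

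The letters of an ATF4-type element, TGATGNAA on either strand, stood in 1003 of 27305 promoters (3.67%), in 281 of 12682 measured genes (2.22%) and in 4 of 19 ATF4 targets with a promoter (21.1%): ATF3, CHAC1, ASNS and SLC3A2. They stood in 5 of 114 genes below -1 (4.39%) and in 9 of 124 genes above 1 (7.26%), so the letters were no more common among the lower genes than among the higher. The windows of ASNS and CHAC1 are shown, 150 bases each, since they hold the element in a gene with a small and a gene with a large difference.
ASNS, chr7:97872409-97872558, minus strand: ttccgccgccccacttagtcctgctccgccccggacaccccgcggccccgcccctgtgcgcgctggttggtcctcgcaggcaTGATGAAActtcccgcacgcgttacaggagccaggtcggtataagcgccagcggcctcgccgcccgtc
CHAC1, chr15:40953221-40953370, plus strand: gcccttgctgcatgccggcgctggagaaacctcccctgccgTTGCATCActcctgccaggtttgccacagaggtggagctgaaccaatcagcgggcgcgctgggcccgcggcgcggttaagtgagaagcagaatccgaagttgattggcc

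In ASNS (-0.60) the match began 68 bases before the start and in CHAC1 (-1.68) 209 bases before it, and the window shown of CHAC1 begins 250 bases before the start.

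**Figure D3:**
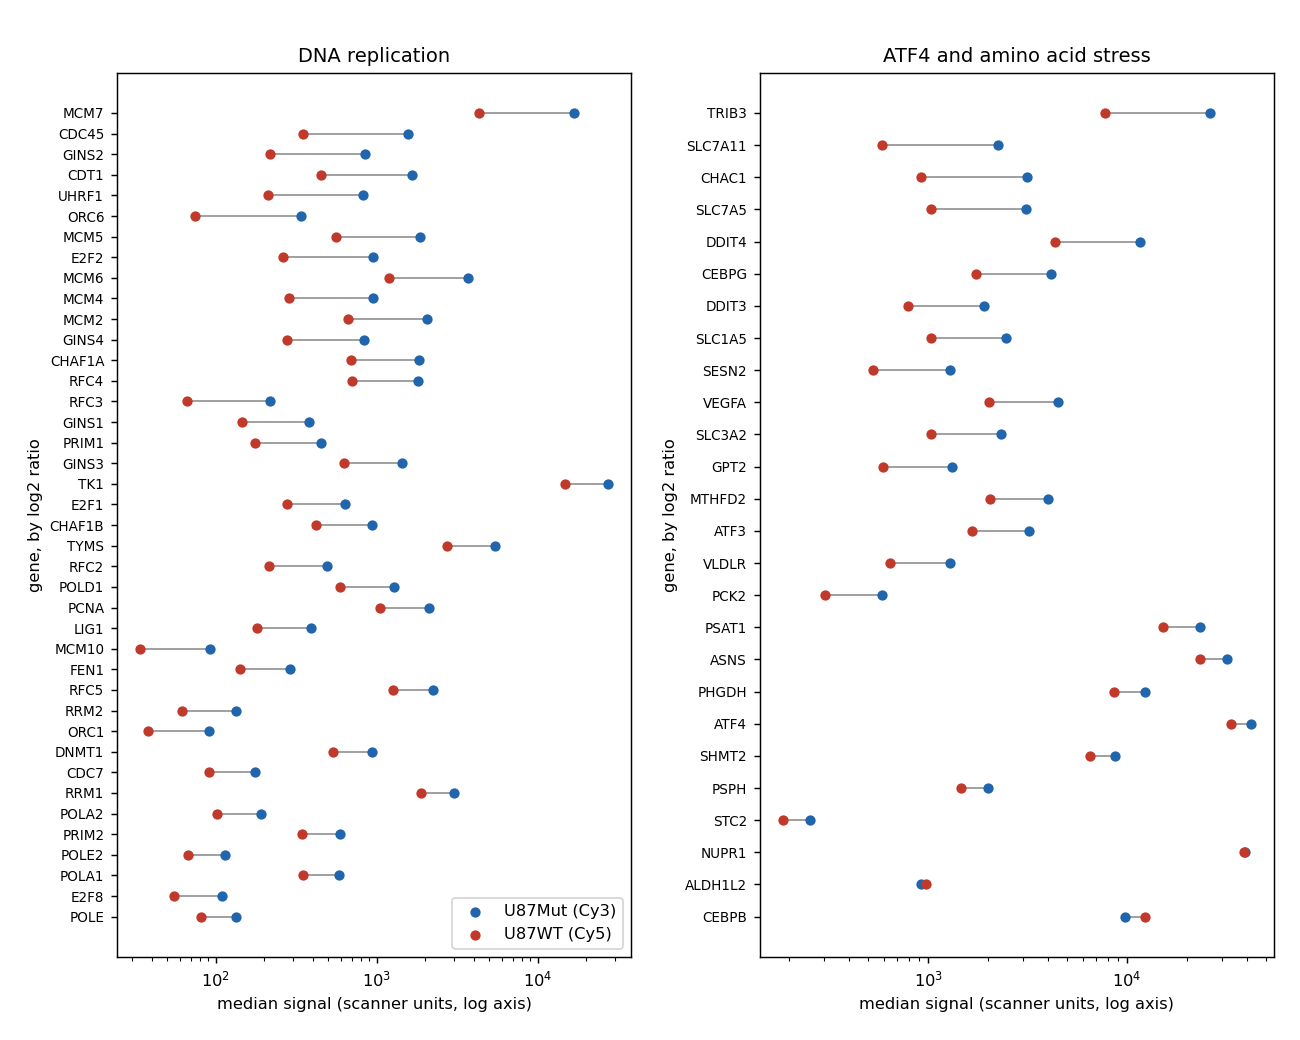
Median signal in U87WT (Cy5, red) and U87Mut (Cy3, blue) on the serum-free array for 40 DNA replication genes and the 26 ATF4 targets above background, in scanner units before background correction and on log axes, 1 line a gene, ordered by log2 ratio with the lowest at the top. The red point lies left of the blue one for every DNA replication gene shown, and it lies to the right for ALDH1L2 and CEBPB.

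Targets of the liver X receptor, with the enzymes and carriers of oxysterols, formed the pathway list with the highest median. From these same arrays the study had already reported CH25H, LPCAT3 and SREBF1 of this list as higher in U87WT in all conditions. The high median is therefore in part not an independent result. Liver X receptors sense oxysterols and turn on genes that export cholesterol. Of 12 listed genes on the array 9 were above background, 8 of the 9 lay above 0.5 (6.07% of all genes) and 5 above 1 (1.16%), none lay below -0.5, and the median was 1.04, against 0.94 and 0.84 on the other arrays. CH25H, which makes 25-hydroxycholesterol, read 6770 in U87WT and 1933.5 in U87Mut (1.78). ABCA1, the cholesterol exporter, read 5403.5 in U87WT and 2137 in U87Mut (1.32, second probe 1.09), and NR1H3, the receptor LXR-alpha, 3255.5 in U87WT and 1452.5 in U87Mut (1.18). APOE, described above, and MYLIP (1.04), which marks lipoprotein receptors for degradation, were the other 2 above 1.

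LPCAT3, a phospholipid acyltransferase, lay at 0.89, and the lysosomal sterol carriers NPC2 and NPC1 at 0.63 and -0.16. SREBF1, which drives fatty acid synthesis, read 18273.5 in U87WT and 9201 in U87Mut (0.89), but its second probe gave -0.09. The list thus lay higher except NPC1, and for SREBF1 the 2 probes differed.

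Genes of cholesterol synthesis and uptake lay slightly below the median of all genes: 20 of 25 were below 0, and the median was -0.15. Below -0.5 lay 2 (5.69% of all genes) and above 0.5 lay 1 (6.07%). MSMO1 and SQLE, enzymes of the late pathway, lay at -0.63 and -0.56. On the IGF1 array the median of the same list was 0.32 and on the array with IGF1 and OSI906 0.02. The median thus lay on the U87Mut side in serum-free medium and on the U87WT side with IGF1, and this difference between arrays was not tested.

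Fatty acid synthesis was split. SCD and SCD5, which desaturate stearate, lay at 0.89 and 0.70, and FASN, the synthase, at 0.34 (1951.5 in U87WT and 1576 in U87Mut), while ELOVL7, ELOVL1 and MLXIPL lay at -0.74, -0.66 and -0.61. Of 18 genes 3 lay above 0.5 (6.07% of all genes) and 3 below -0.5 (5.69%). The median of 0.17 was -0.04 with the array centred on its median, where that of all genes was -0.15. FASN lay at 0.74 and 0.86 on the other arrays.

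Acyl-CoA synthetases, which activate fatty acids, lay on the U87WT side on balance. The study had already reported ACSL5, ACSF2 and ACSM6 as higher in U87WT in serum-free medium from these same arrays. The shift of the list is therefore in part not an independent result. Of 14 above background 4 lay above 0.5 (6.07% of all genes) and none below -0.5, with a median of 0.26. This median was 0.04 with the array centred on its median (-0.15 over all genes) and 0.13 without the filter on dim probes. ACSL5, which acts on long chains, read 646 in U87WT and 424 in U87Mut (0.65), and ACSF2, which acts on medium chains in mitochondria, 982 in U87WT and 544 in U87Mut (0.88). SLC27A1, a fatty acid transport protein, lay at 0.82. ACSM6 was dim, at 93.5 in U87WT and 33.5 in U87Mut (0.91), and with the signals as the scanner software processed them its ratio was 2.32.

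In glycerolipid and phospholipid synthesis 3 of 29 genes lay above 0.5 (6.07% of all genes) and 2 below -0.5 (5.69%), around a median of -0.01. PCYT1A, which controls the rate of phosphatidylcholine synthesis, lay at 0.25, and at -0.03 with the array centred on its median, where the median of all genes was -0.15. DGAT1, the last step of triglyceride synthesis, lay at 0.54, but its 3 probes ran from -0.29 to 0.54. The phospholipid phosphatases went apart, PLPP3 at 0.90 and PLPP2 at -1.09.

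In glucose and lactate transport none of 13 genes lay past 0.5 in either direction, and SLC2A1, the glucose transporter GLUT1, read 873 in U87WT and 1173 in U87Mut (-0.35), with -0.32 and 0.11 on the other arrays. Of 19 glycolysis genes 2 lay above 0.5 (6.07% of all genes), HK2 (0.50) and PFKFB2 (0.63), and none below -0.5, with GAPDH at 0.21, LDHA at -0.38 (second probe -0.81) and LDHB at -0.08. PDK1, which inactivates pyruvate dehydrogenase, read 374 in U87WT and 584 in U87Mut (-0.51), and was 1 of 4 genes below -0.5 among 34 of pyruvate dehydrogenase and the TCA cycle (5.69% of all genes). The others were PCK2 (-0.80), ME2 (-0.76) and IDH3A (-0.75), and SUCLG2 (0.67) was the 1 gene above 0.5 (6.07% of all genes).

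In oxidative phosphorylation 1 of 70 genes lay above 0.5, ATP5F1E (0.91), a small subunit of the ATP synthase, and none below -0.5. The median was 0.04, and -0.09 with the array centred on its median, where that of all genes was -0.15. Of 22 genes of fatty acid oxidation 1 lay above 0.5 and 1 below -0.5, ECI1 (-0.79). These shares are at or below the 6.07% and 5.69% of all genes.

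Cytosolic ribosomal protein genes were on the U87WT side, 62 of 73 above 0 with a median of 0.26, although the median was -0.02 with the signals as the scanner software processed them. Of the 73 genes 14 lay above 0.5 (6.07% of all genes) and 1 below -0.5 (5.69%). RPS2 read 136638 in U87WT and 51606.5 in U87Mut (1.16), while its other probes reached down to -0.25. These RNAs have many near-identical pseudogenes, and probes may not tell them apart. VIM, a cytoskeletal gene with abundant mRNA, lay at 1.15, but at 0.29 on the IGF1 array and 0.77 on the array with IGF1 and OSI906.

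Antioxidant genes went in both directions, 6 of 28 above 0.5 (6.07% of all genes) and 7 below -0.5 (5.69%), with 16 of 28 below 0 and a median of -0.13. The 6 above 0.5 were 3 superoxide dismutases, GPX1, CAT and GSR. SOD2, of mitochondria, read 15019 in U87WT and 6346 in U87Mut (1.16), SOD1, of the cytosol, 47588 in U87WT and 23958 in U87Mut (0.81), and GPX1 63096 in U87WT and 23360 in U87Mut (1.25, second probe 0.72). CAT, SOD3 and GSR lay at 0.69, 0.80 and 0.64, while the peroxiredoxins PRDX1 to PRDX6, which also remove peroxide, lay between -0.29 (PRDX3) and 0.31 (PRDX1). On the other side, beside SLC7A11, were SRXN1 (-1.10), TXNRD1 (-0.67), NQO1 (-0.66) and TXN (-0.59), and the metallothioneins MT1X (-0.84) and MT2A (-0.60). On the other arrays SOD2 lay at 0.98 and 1.70 and SRXN1 at -1.42 and -1.34.

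**Figure D4:**
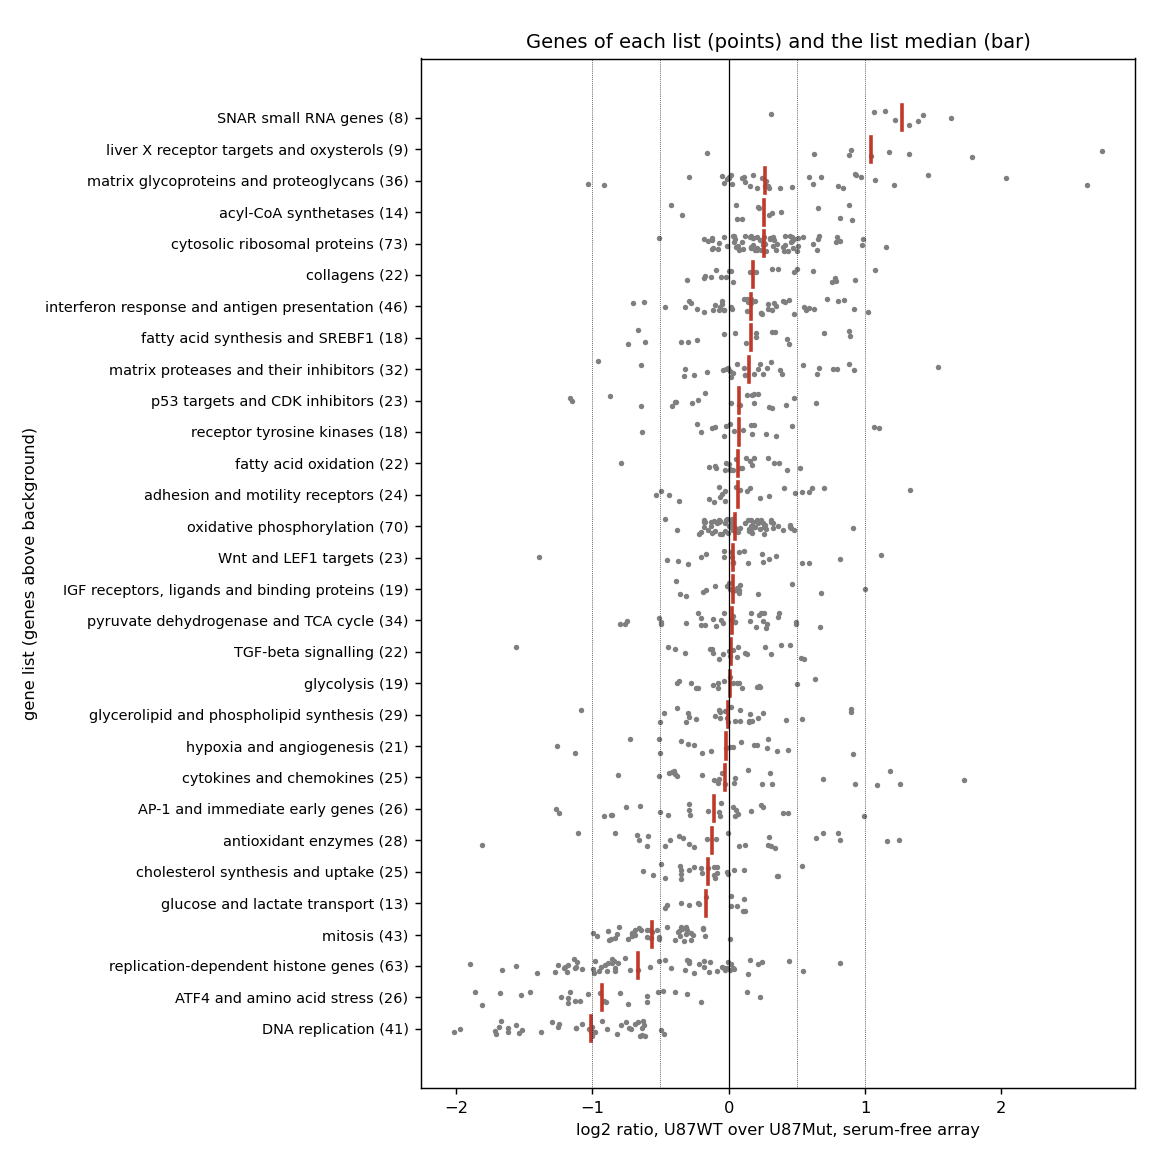
Log2 ratio of U87WT over U87Mut on the serum-free array (x axis) for the genes above background of each list (y axis, number of genes in brackets), 1 point a gene with vertical jitter, and the median of the list as a red bar. Dotted lines stand at 0.5 and 1 on either side of 0. The medians of DNA replication (-1.01), ATF4 targets (-0.93), histone genes (-0.67) and mitosis (-0.56) lie at the left, those of the liver X receptor list (1.04) and of the SNAR genes (1.27) at the right, and the others within 0.3 of 0. The histone and SNAR groups were formed after their values were seen. The liver X receptor and acyl-CoA synthetase lists hold genes that the study had already reported as higher in U87WT from these arrays.

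Genes of the extracellular matrix were higher in U87WT in part. Of 36 matrix glycoproteins and proteoglycans 13 lay above 0.5 (6.07% of all genes) and 2 below -0.5 (5.69%), with a median of 0.27. SPARC, a collagen-binding protein, read 19222.5 in U87WT and 6536.5 in U87Mut (1.46), MATN2 716 in U87WT and 307 in U87Mut (1.21) and LUM, a proteoglycan like decorin, 295 in U87WT and 127.5 in U87Mut (1.08). EFEMP1, an elastic fibre protein, lay at 2.03 from a dim probe (253.5 in U87WT and 36 in U87Mut), and at 4.22 with the signals as the scanner software processed them. FN1, fibronectin, lay at 0.68, and laminin chains LAMA4, LAMB1 and LAMB3 at 0.93, 0.84 and 0.62. The 2 on the other side were TNC, tenascin C, at -0.91, and MFAP2 at -1.03.

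Of 22 collagen genes 7 lay above 0.5 (6.07% of all genes) and none below -0.5, with a median of 0.18. With the array centred on its median the collagen median was 0.03, and that of all genes -0.15. COL8A1 read 1548 in U87WT and 752 in U87Mut (1.07), and the chains of type I collagen, COL1A1 and COL1A2, lay at 0.93 and 0.76. Of 32 matrix proteases and inhibitors 8 lay above 0.5 (6.07%) and 2 below -0.5 (5.69%). MMP14, the membrane-bound protease that activates MMP2, read 6025 in U87WT and 2046 in U87Mut (1.54), but lay at 0.07 and 0.55 on the other arrays. MMP2, MMP3 and PLAU, a plasminogen activator, lay at 0.92, 0.88 and 0.80, and PLAUR, the receptor of PLAU, at -0.64.

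Among 24 adhesion and motility receptors 5 lay above 0.5 (6.07% of all genes) and 1 below -0.5 (5.69%). ITGA7, a laminin receptor, read 3931 in U87WT and 1566.5 in U87Mut (1.33) and was the only one past 1, with 1.39 and 1.33 on the other arrays. Of 18 receptor tyrosine kinases 2 lay above 1 (1.16% of all genes), PDGFRB (1.10, second probe 0.34) and EPHA4 (1.07), and 1 below -0.5 (5.69%), AXL (-0.63). EGFR lay at -0.12 and MET at 0.01.

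Cytokine genes were mixed, with 6 of 25 above 0.5 (6.07% of all genes), 2 below -0.5 (5.69%) and 4 above 1 (1.16%). CXCL1, which attracts neutrophils, read 1078 in U87WT and 317 in U87Mut (1.73, second probe 0.85), and CCL2, which attracts monocytes, 256.1 in U87WT and 90.5 in U87Mut (1.26, SD 0.10 over 9 spots). NFKBIA and TNFAIP3, inhibitors that NF-kappaB itself turns on, lay at 1.09 and 1.18. IL6 and CXCL8, 2 further NF-kappaB targets, lay at -0.19 and -0.03. The median of the list was -0.03 in serum-free medium and 0.55 on the array with IGF1 and OSI906.

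In the interferon response and antigen presentation 9 of 46 genes lay above 0.5 (6.07% of all genes) and 2 below -0.5 (5.69%). MX2 read 448 in U87WT and 215 in U87Mut (1.02), OASL and IFIT1 lay at 0.92 and 0.85, and the class I genes HLA-B and HLA-C at 0.59 and 0.57. IRF1 and ISG20 lay at -0.62 and -0.70. HLA genes are alike in sequence and may share probes.

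The signal of the receptor's probe differed little. IGF1R read 445 in U87WT and 447 in U87Mut (0.07) from the 1 probe on the array, and lay at 0.23 and 0.09 on the other arrays. With the serum-free array centred on its median IGF1R lay at -0.20, where the median of all genes was -0.15. The position of the probe is not given in the sources used here, so whether it reads vector mRNA at all is not known. If it does, vector and endogenous IGF1R mRNA cannot be told apart. INSR, the insulin receptor, read 380 in U87WT and 385 in U87Mut (0.06, and -0.21 with the array centred on its median, again against -0.15). IGF1 was dim (33 in U87WT and 35 in U87Mut, -0.01), and neither of the 2 probes of IGF2 was above background in both channels. Of 19 genes of IGF signaling 2 lay above 0.5 (6.07% of all genes) and none below -0.5 (5.69%). The 2 were PIK3R1 (1.00), the regulatory subunit of PI3K, and IGFBP7 (0.68). AKT1 and AKT2 lay at -0.36 and -0.39.

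In Wnt signaling AXIN2, a feedback inhibitor of the pathway, read 229 in U87WT and 90 in U87Mut (1.12, second probe 0.66), and LEF1, the transcription factor, lay at -0.20. Of 23 genes 4 lay above 0.5 (6.07% of all genes) and 1, CCND1, below -0.5 (5.69%). In TGF-beta signaling 2 of 22 lay above 0.5 (6.07% of all genes), TGFB2 (0.53) and FST (0.55), and 1 below -0.5 (5.69%), GDF15. TGFB1 lay at -0.12. GDF15, a distant member of the family that is induced by stress, read 11975 in U87WT and 32208 in U87Mut (-1.56). Of 26 AP-1 and immediate early genes 8 lay below -0.5 (5.69% of all genes) and 1 above 0.5 (6.07%). KLF4 lay at -1.24, ETV5 at -0.86 and FOSL1 at -0.75, FOSL2 at 0.99, and JUN at 0.07. With the array centred on its median JUN lay at -0.18, where the median of all genes was -0.15.

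Of 21 genes of hypoxia and angiogenesis 5 lay below -0.5 (5.69% of all genes) and 1 above 0.5 (6.07%). NDRG1 read 5068 in U87WT and 11670 in U87Mut (-1.26) and VEGFA, the main angiogenic factor, 2022 in U87WT and 4496 in U87Mut (-1.13, second probe -0.78), while ANGPT1, the ligand of TIE2, lay at 0.91. WASHC2C, of the WASH complex on endosomes, lay at 0.14 by its brightest probe, and its 4 probes ran from 0.14 to 1.03. With the array centred on its median the brightest probe lay at -0.10, where the median of all genes was -0.15. No probe on the array carried the name of WASHC2A, its near-identical copy.

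Small non-coding RNAs were higher in U87WT in part, a group formed after its values were seen. All 8 SNAR genes lay above 0, and 7 above 1 (1.16% of all genes), with a median of 1.27. SNAR-A3 read 222825 in U87WT and 59434.5 in U87Mut (1.63), and RN7SL1, the RNA of the signal recognition particle, 45949.5 in U87WT and 15852.5 in U87Mut (1.38). On the IGF1 array the median of the SNAR genes was 0.53 and RN7SL1 lay at -0.42. RNA18SN5, a ribosomal RNA, lay at -1.24 in serum-free medium and at -0.02 and 0.25 on the other arrays. SNAR copies are close to identical, so these 8 genes are not 8 separate measurements, and the part of RNA quality in these values was not tested.

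The values of other probes and arrays bear on how stable the calls are. Of the 192 genes above 1, 51 had a second member probe, which was above 0 for 48, above 0.5 for 28 and above 1 for 9. Of the 149 below -1, 33 had one, which was below 0 for 31, below -0.5 for 22 and below -1 for 10. Over the 27664 probes well above background on every array, which share clones, dyes and array design, the log2 ratios of the serum-free array had a correlation of 0.672 with those of the IGF1 array and 0.784 with those of the array with IGF1 and OSI906.

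On the IGF1 array 162 of 191 genes above 1 lay above 0.5 again (6.94% of all genes did) and 126 of 149 below -1 lay below -0.5 (4.4%). On the array with IGF1 and OSI906 it was 174 of 192 (5.43%) and 129 of 149 (5.26%). All 3 arrays had 79 genes above 1 and 50 below -1 of those called in serum-free medium. Past 0.5 on neither other array were 12 of the higher and 15 of the lower genes.

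Of the 6 genes above 1 with a bright local background, SLC16A5, a monocarboxylate transporter, lay at 1.76 and at 0.99 and 1.25 on the other arrays. The others were FMO1 (1.30), HMCN2 (1.33), LINC01127 (1.15), LINC02311 (1.19) and SLC22A13 (1.57), which lay between -0.24 and 0.23 on the other arrays. The 3 below -1 were LCAT (-1.14), NHSL1-AS1 (-1.34) and SIPA1L3 (-1.01), between -0.31 and -0.10 there. With the signals as the scanner software processed them, LCAT lay at 0.26 and SIPA1L3 at 2.48, on the U87WT side, and NHSL1-AS1 at -0.27.

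Probes bright in 1 channel only have no full ratio. A further 2873 probes were well above background only in U87WT and 1642 only in U87Mut. For these a bound was taken, after background correction and loess, as the bright channel over the higher of the lowest value well above background in the other channel and the probe's own value there, and it passed 2-fold for 17 probes bright in U87WT and none bright in U87Mut. The 5 named genes with the highest bounds in U87WT were LINC00587, OR4A5, SH2D1B, EPHA10 and TRMT10B, at least 2.87-, 2.84-, 2.71-, 2.22- and 2.07-fold higher. All 5 sat on a local Cy5 background between 184 and 213.5, where most spots have 21, and lay between -0.05 and 0.10 on the other arrays. LIMCH1, chosen after its values were seen since its local background was 21, read 71 in Cy5 and 23 in Cy3, at least 1.74-fold higher, and lay at 0.79 and 0.57 on the other arrays.

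In the other direction the probe's own Cy5 value was the higher one for the 5 genes that ranked highest, so that for them the measured ratio is printed, with a Cy5 signal not well above background. MORC1 lay at -0.75 (27.5 in Cy5 and 72.5 in Cy3), KBTBD11-OT1 at -0.51, CDC6 at -0.36, CLDN1 at -0.36 and CMKLR2 at -0.27. MORC1, a germ-cell gene, lay at -0.73 and -0.74 on the other arrays. CLDN1, a tight-junction protein, lay at -0.36 and -0.09.

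The genes past 0.5 were spread over the 22 autosomes, with some differences in share. On chromosome 21, 23 of 192 genes lay above 0.5 (11.98%, against 6.07% of all genes) and 5 below -0.5 (2.60%). Above 0.5 lay 12.5% of its genes on the IGF1 array (6.94% of all genes) and 10.4% with IGF1 and OSI906 (5.43%). SOD1 (0.81) and SLC5A3 (1.26), an inositol transporter, are among its genes. Chromosome 5 followed with 70 of 758 (9.23%). On chromosome 22, 15 of 403 lay above 0.5 (3.72%) and 32 below -0.5 (7.94%), and on chromosome 16, 33 of 721 above (4.58%) and 63 below (8.74%). The median per chromosome lay between -0.03 and 0.05. Copy number of the clones was not measured here.

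**Figure D5:**
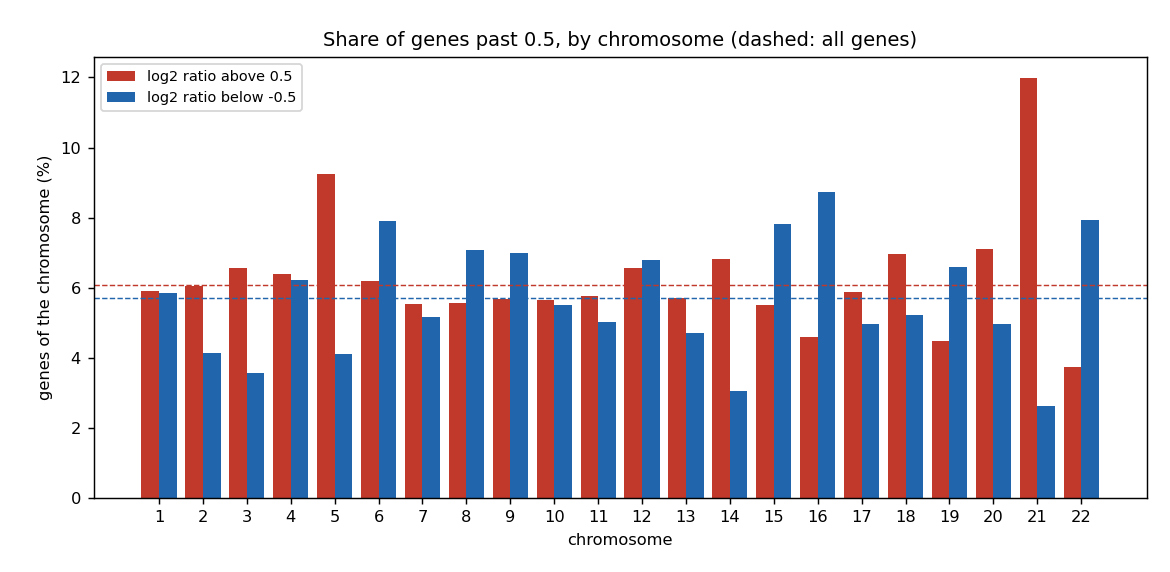
Share of the genes above background on each autosome (x axis) with a log2 ratio above 0.5 (red bars) or below -0.5 (blue bars) on the serum-free array, in percent of the genes of that chromosome (y axis, from 0), with the share over all genes as dashed lines (6.07% and 5.69%). Chromosome 21 has the tallest red bar (11.98%) and chromosome 16 the tallest blue bar (8.74%).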

How the data were processed

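Arrays of the SurePrint G3 Human v3 design were scanned and read by Agilent Feature Extraction 12.0.3.1. The intensity values were deposited as that software gave them, with per the file headers the median signal and local background of each spot and channel. Per the file headers the same software also deposited a log10 ratio of processed signals. The authors also deposited log2 ratios, which their methods describe as background-corrected and normalized with limma. In R 4.3.3 with limma 3.58.1, normexp (offset 50) was fitted without spots marked as not uniform, and loess (span 0.3, 4 iterations) was run within the array with weight 0 for control and outlier spots. Spots of a probe were averaged. Transcript ids were named through RefSeq (GRCh38.p14) for 34890 of 36768 probes with one, and promoters are of that build. The scan covered 62976 spots, 0 saturated. The number of arrays, 1, limits the precision.

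Of each gene the brightest member probe was used. Named genes are the 15 highest and 15 lowest among probes at least as bright as the median member, up to 4 per list and direction past 1, genes the study named, and up to 5 per direction among probes bright in 1 channel. Not every gene the rule gives is reported here. The members, lists and rules were chosen with earlier results of these data known. Ratios were tested on simulated data. Alternatives were other background corrections and offsets, centring, processed signals, deposited ratios, filters and gene summaries.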

Additional observations from a re-analysis of the deposited data

Results flagged for a closer look

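For 3 genes the clone difference had opposite directions in serum-free medium and with IGF1, past 0.5 on both arrays. RIT1, a small GTPase of the RAS family, lay at 1.68 in serum-free medium, -0.53 with IGF1 and -0.15 with IGF1 and OSI906. RNA5-8SN5, a ribosomal RNA, lay at 1.35, -0.80 and 0.66. LOC100132077 lay at 1.10, -0.63 and 0.10. Each value is from 1 array, the local Cy5 background of their serum-free spots was 19 to 24, and the difference was not tested.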

How the results depend on the processing

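No paired analysis was possible because each condition has 1 array, and for the same reason no array could be left out. The alternative on mean spot signals could not be run, since the scanner columns used here give median signals. The count of genes higher in U87WT, 192, became 330 without background correction, 388 with an offset of 0, 585 with the signals processed by the scanner software, 108 with the median in place of loess and 1001 at a limit of 0.5. The count of lower genes, 149, became 295 with an offset of 0, 450 with processed signals, 360 with the median in place of loess and 938 at 0.5. The other 17 recounts stayed within 1.5 times, at 251 and 191 with the deposited log2 ratios, and, chosen after seeing the data, at 186 and 146 without probes of bright local background and 206 and 148 with the background fit also leaving out spots of outlying local background. Of the 341 called genes 256 stayed past 1 with the median in place of loess and 286 with the median of the member probes. With processed signals 339 of the 341 kept their sign, and LCAT and SIPA1L3 did not. Over the 1100 recomputed values of the genes named by rule, DGAT1 alone changed sign from a size past 0.5, to -0.13 with the median of its probes. Medians of lists past 0.5 kept their direction under every alternative. Why the settings differ was not tested. Dim probes limit the ratios: 3 of the 4124 dimmest genes lay above 1 and 1 below -1.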

Other observations

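Genes past 1 outside the lists, singled out after their values were seen, included receptors best known from leukocytes and repair proteins. CCR1 and FPR1, chemokine and formyl peptide receptors, read 1544.5 in U87WT and 476.5 in U87Mut (1.70) and 1358.5 in U87WT and 677.5 in U87Mut (1.04). IL7R, IL1R1 and IL21R, cytokine receptors, lay at 1.37, 1.33 and 1.05. These 5 genes also lay above 0.4 on both other arrays, the lowest being IL1R1 with 0.49 on the IGF1 array.

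The lysosomal protease CTSK read 97939 in U87WT and 30530 in U87Mut (1.47), CTSF 9711.5 in U87WT and 4382.5 in U87Mut (1.09), and the lysosomal proteins GRN and GPNMB lay at 1.65 and 1.07. MITF, a transcription factor of melanocytes and lysosomal genes, read 877.5 in U87WT and 402 in U87Mut (1.13). On the other arrays CTSK lay at 1.67 and 1.03 and GRN at 1.84 and 1.98.

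On the lower side, FANCI and FANCA of the Fanconi anemia pathway lay at -1.44 and -1.25, the helicase BLM at -1.16 and XRCC2 at -1.01. ODC1, the first enzyme of polyamine synthesis, read 1134.5 in U87WT and 2907.5 in U87Mut (-1.29) and lay at -1.60 and -1.93 on the other arrays. The metallothionein genes MT1B and MT1M lay at -1.13 and -1.04, and metallothionein copies are alike in sequence.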
